A study of Mus musculus with 9 samples.

Results

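The transcripts of 4 receptors for pituitary hormones were followed in mouse ovaries over 3 consecutive days before puberty. The receptors were Fshr, Lhcgr, Prlr and Ghr, which bind follicle-stimulating hormone (FSH), luteinizing hormone (LH), prolactin and growth hormone. They were taken by gene name from tables of 52025 genes, although earlier results of these data were known when they were chosen, and all 4 were among the 15495 genes tested. Ovaries of Kunming mice, an outbred stock, were sampled on postnatal day 14 (PD14), PD15 and PD16, and 3 libraries were sequenced for each day, 9 in all. No treatment is given for any of the 3 groups, and the study used these days as the time at which the first fluid-filled cavities, the antra, form in follicles. The values are FPKM, in which the fragments of a gene are divided by the length of its model and by the depth of the library, so a comparison of levels between genes also depends on the length that was used for each.

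FSH and LH reach the ovary through the blood and act on receptors of the same family, which couple to the G protein Gs and raise cyclic AMP. FSHR is the mark of granulosa cells, the cells that surround the oocyte, and it is needed for follicles to grow past the stage before the antrum forms. LHCGR sits first on theca and interstitial cells, which make androgens, and appears on granulosa cells only as a follicle nears ovulation. PRLR and GHR belong to the cytokine receptors and signal through the kinase JAK2 and STAT proteins. Prolactin is best known for its support of the corpus luteum, which these ovaries do not yet have, and growth hormone acts partly through the growth factor IGF1.

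Fshr (ENSMUSG00000032937) and Lhcgr (ENSMUSG00000024107) lie on the minus strand of chromosome 17 of the mouse genome build GRCm38, at chr17:88984952-89200675 and chr17:88716481-88791990, with 193 kb between them. Prlr (ENSMUSG00000005268) lies at chr15:10177238-10349180 on the plus strand, and Ghr (ENSMUSG00000055737) at chr15:3317760-3583492 on the minus strand. All 4 are protein coding. The upstream sequences of the 2 gonadotropin receptor genes are shown because these neighbours on 1 strand have unlike promoters and their balance is compared within libraries. Each is the 250 bases before the RefSeq start (GRCm38.p6) at chr17:89200676-89200925 for Fshr and chr17:88792015-88792264 for Lhcgr, read 5′ to 3′ on the minus strand. Capitals mark the motifs found on either strand among 5 that were searched. These were CACGTG, the E-box, and GGGCGG, the GC box. A further motif was TCAAGG, the core of a site for steroidogenic factor 1. The remaining ones were GATAA, bound by GATA factors, and TTCNNNGAA, bound by STAT proteins.
Fshr upstream: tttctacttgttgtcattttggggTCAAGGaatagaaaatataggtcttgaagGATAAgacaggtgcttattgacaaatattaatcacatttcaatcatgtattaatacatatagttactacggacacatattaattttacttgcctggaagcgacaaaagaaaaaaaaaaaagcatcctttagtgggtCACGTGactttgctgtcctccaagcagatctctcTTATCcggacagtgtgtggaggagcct
Lhcgr upstream: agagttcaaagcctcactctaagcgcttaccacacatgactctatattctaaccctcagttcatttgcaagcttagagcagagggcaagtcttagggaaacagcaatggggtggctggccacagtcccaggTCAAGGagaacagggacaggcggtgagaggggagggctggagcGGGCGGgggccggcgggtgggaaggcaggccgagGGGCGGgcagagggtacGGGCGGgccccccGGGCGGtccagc
The Fshr promoter held 1 E-box, which began 61 bases before the start, besides 2 GATA motifs and 1 TCAAGG core. The E-box is the motif that the factors USF1 and USF2 are known to bind in the Fshr promoter. The Lhcgr promoter held 4 GC boxes, beginning 76, 42, 25 and 12 bases before the start, and 1 TCAAGG core. GC boxes are known binding sites of SP1 and SP3. No GC box was found in the Fshr window and no E-box in that of Lhcgr. Among 32851 mouse promoters of the same 300 bases, from 250 before to 50 after the start, 7.15% held the E-box, 35.7% the GC box, 14.4% the TCAAGG core, 25.4% the GATA motif and 8.30% the STAT motif. GC content was 40.7% for Fshr and 64.0% for Lhcgr, against a median of 52.7% for all. RefSeq lists 3 promoters for Prlr, with 49.3%, 45.7% and 35.3% GC, and 1 of them held a STAT motif. It lists 2 for Ghr, with 52.3% and 67.0% GC, and the second held 2 GC boxes. A match of letters is a description of the sequence, not a bound site.

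Libraries held about 20369000 to 28731000 fragments, as recovered from the steps between low FPKM values. Granulosa cells are given as the source in the labels and ovary as the tissue, while the study's methods describe RNA from whole ovaries. The markers were those of whole ovary. The 8 oocyte markers summed to 1003 to 1228 FPKM on PD14, 1318 to 1396 on PD15 and 957 to 1025 on PD16. Over the 9 libraries the 8 granulosa cell markers summed to 2726 to 3544 FPKM, the 8 theca and interstitial cell markers to 1198 to 2241 and the 6 stromal cell markers to 464 to 630, and none of these genes was at 0 on any day. The 5 red cell markers summed to 105 to 147 FPKM on PD14, 46.4 to 63.2 on PD15 and 60.8 to 116 on PD16. Endothelial markers summed to 50.9 to 59.7 FPKM, macrophage markers to 13.2 to 16.4 and epithelial markers to 18.0 to 27.3. Markers of fat tissue summed to at most 8.02 FPKM, those of muscle to at most 1.41 and those of the pituitary to at most 0.597. The part of these cells in the receptor values was not tested. In such tissue, fewer cells of a type and less RNA per cell cannot be told apart. No 2 libraries had the same values, but the labels do not say which animals or how many went into each library, so the p-values measure the spread between these libraries.

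All 4 receptors were expressed on every day. By their means only Fshr and Lhcgr changed places between the days, and on PD14 these 2 were nearly equal. On PD14 Fshr (14.2 ± 2.29 FPKM, mean ± SD, n = 3) and Lhcgr (14.4 ± 1.37) were at the same height, followed by Ghr (6.10 ± 0.380) and Prlr (4.97 ± 0.782). On PD15 the order was Fshr (12.8 ± 0.482), Lhcgr (10.4 ± 2.41), Ghr (5.25 ± 0.936) and Prlr (3.29 ± 0.350). On PD16 Fshr stood at 17.9 ± 2.94 FPKM and Lhcgr at 9.78 ± 1.76, with Ghr (6.33 ± 1.15) and Prlr (3.50 ± 0.809) below. The libraries of Fshr and Lhcgr overlapped on PD14 and PD15 but not on PD16, where the lowest Fshr value (15.6) was above the highest Lhcgr value (11.3). Those of Ghr and Prlr overlapped on PD14 and were apart on the other days. Over the 9 libraries Fshr was above 64.9% to 79.9% of all genes tested, Lhcgr above 52.9% to 73.8%, Ghr above 37.8% to 51.8% and Prlr above 24.9% to 44.2%. The place of Prlr rests on its length. It had 901 to 2189 fragments in a library against 593 to 1050 for Fshr, but its deposited FPKM are spread over a model of 15339 bases, while those of Fshr fit a model of 2079 bases, which is the length of its coding sequence. The levels of Ghr fit 9053 bases, which is all exons of the gene in GENCODE M21, as is the length for Prlr. The levels of Lhcgr fit 2553 bases, although the exons of the gene cover 7645 bases in GENCODE M21 and its only coding transcript has 6828, while those of Fshr cover 2360. The near equality of Fshr and Lhcgr on PD14 and the overlap of their libraries are therefore stated for the deposited models only, and levels under a longer Lhcgr model were not tested. Prlr has 7 coding transcripts of 564 to 9900 bases and Ghr has 5 of 898 to 4175 bases, long and short forms included, and the gene-level values do not separate them. Within a gene the same deposited length holds for all libraries.

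**Figure D1:**
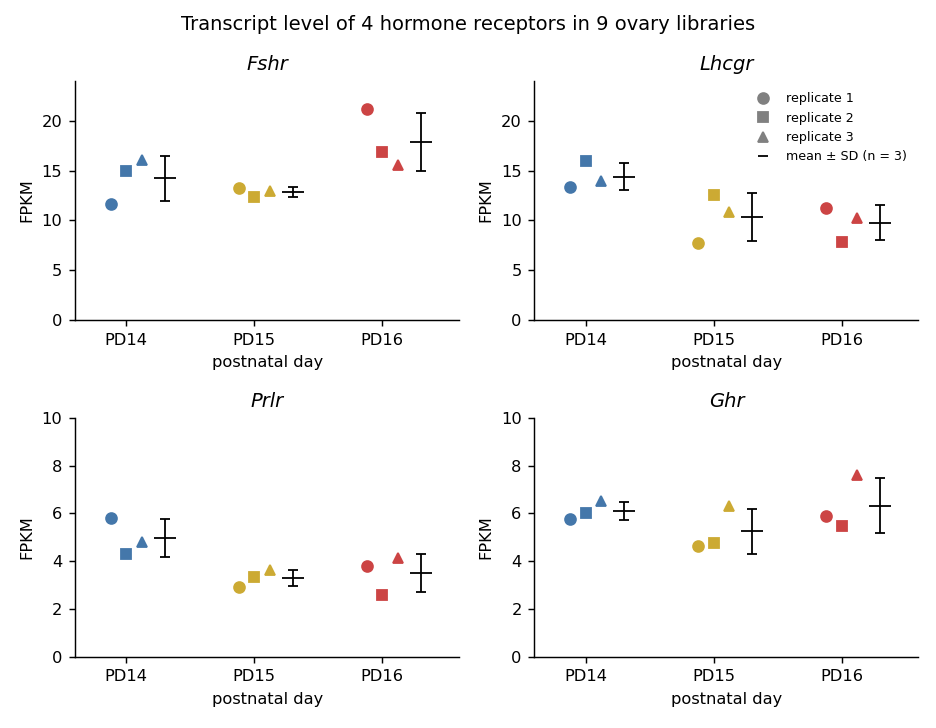
FPKM (vertical axes, linear from 0) of Fshr, Lhcgr, Prlr and Ghr by postnatal day, 1 point for each library with the replicate as its shape, and the mean ± SD of 3 libraries in black. Fshr is highest on PD16 (15.6 to 21.2 FPKM), Lhcgr and Prlr are highest on PD14 (13.3 to 16.0 and 4.29 to 5.82 FPKM), and the Ghr points of all days overlap.

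Fshr, the receptor through which FSH drives granulosa cells to divide and to make estradiol, was highest on PD16. Its level was 11.6, 15.0 and 16.0 FPKM in the PD14 libraries, 13.2, 12.3 and 13.0 on PD15, and 21.2, 16.9 and 15.6 on PD16. All PD16 libraries lay above all PD15 libraries, whereas PD14 overlapped both. The mean on PD16 was 1.39 times that on PD15 and 1.26 times that on PD14. On the log2(FPKM + 1) scale the change was 0.44 from PD15 to PD16 (SE 0.13, 95% interval 0.15 to 0.73, limma, adjusted p = 0.159 over all genes tested) and 0.31 from PD14 to PD16 (SE 0.13, 0.02 to 0.60, limma, adjusted p = 0.185). From PD14 to PD15 it was -0.13 (SE 0.13, -0.41 to 0.16, limma, adjusted p = 0.690). None of these passed the threshold of 0.05. The change from PD14 to PD16 was 0.18 without replicate 1 of PD14 and 0.19 without replicate 1 of PD16, and that from PD14 to PD15 was -0.25 and -0.04 without replicates 1 and 3 of PD14. Days accounted for 60.0% of the sum of squares of Fshr, with p = 0.0679 in the exact permutation test over the 280 ways to put 9 libraries into 3 days, where the smallest p is 0.00357. With 1 library left out this exact p ran from 0.0143, without replicate 1 of PD14, the lowest Fshr library, to 0.211, without replicate 1 of PD16, the highest. Counting error was 3.09% to 4.11% of the Fshr value in a library, while the coefficient of variation between libraries was 16.1% on PD14, 3.75% on PD15 and 16.4% on PD16.

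Lhcgr, the receptor through which LH drives androgen synthesis in theca cells, was lower on PD15 and PD16 than on PD14 in every library. It stood at 13.3, 16.0 and 13.9 FPKM on PD14, 7.77, 12.5 and 10.9 on PD15, and 11.3, 7.85 and 10.2 on PD16. No library of a later day reached the lowest of PD14, and those of PD15 and PD16 overlapped. The mean was 0.721 of the PD14 mean on PD15 and 0.679 on PD16. The log2 changes were -0.46 on PD15 (SE 0.17, 95% interval -0.83 to -0.08, limma, adjusted p = 0.244) and -0.52 on PD16 (SE 0.17, -0.90 to -0.15, limma, adjusted p = 0.101), and neither passed. Without replicate 1 of PD15 the change on PD15 was -0.28. Between PD15 and PD16 the change was -0.07 (-0.44 to 0.30, limma, adjusted p = 0.904). The exact permutation test over the 3 days gave p = 0.10. With 1 library left out this ran from 0.0214, without replicate 1 of PD15, the lowest Lhcgr library, to 0.196, without replicate 2 of PD14, the highest.

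Prlr, which carries the prolactin signal, was like Lhcgr highest on PD14. Its libraries had 5.82, 4.29 and 4.80 FPKM on PD14, 2.92, 3.35 and 3.61 on PD15, and 3.81, 2.59 and 4.12 on PD16. As for Lhcgr, every later library was below every PD14 library, and PD15 and PD16 overlapped. The mean was 0.662 of the PD14 mean on PD15 and 0.705 on PD16. The log2 changes were -0.47 on PD15 (SE 0.14, 95% interval -0.79 to -0.15, limma, adjusted p = 0.174) and -0.42 on PD16 (SE 0.14, -0.74 to -0.09, limma, adjusted p = 0.127). Without replicate 2 of PD16 the latter was -0.26. From PD15 to PD16 the change was 0.06 (-0.27 to 0.38, limma, adjusted p = 0.911). The exact permutation test over the 3 days gave p = 0.0643. With 1 library left out this ran from 0.0143, without replicate 2 of PD16, the lowest Prlr library, to 0.186, without replicate 1 of PD14, the highest. Prlr overlaps the gene model Gm21973, and reads of the 2 could be assigned to either.

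Ghr, which carries the growth hormone signal, had overlapping levels on all days. It stood at 5.76, 6.02 and 6.51 FPKM on PD14, 4.65, 4.78 and 6.33 on PD15, and 5.89, 5.46 and 7.62 on PD16. The log2 change was -0.19 from PD14 to PD15 (95% interval -0.48 to 0.09, limma, adjusted p = 0.522), 0.04 from PD14 to PD16 (-0.25 to 0.32, limma, adjusted p = 0.894) and 0.23 from PD15 to PD16 (-0.06 to 0.51, limma, adjusted p = 0.460). The exact permutation test over the 3 days gave p = 0.343. With 1 library left out the changes ran from -0.31 to -0.12, -0.09 to 0.12 and 0.10 to 0.35, respectively. The intervals still hold changes of about the size seen for Fshr, so they do not show that Ghr was constant.

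No receptor passed the limma test at an adjusted p under 0.05 in any comparison. Of all genes tested, 0.678% passed for PD15 against PD14, 4.25% for PD16 against PD14 and 0.729% for PD16 against PD15. At an unadjusted p under 0.05, 2 of the 4 receptors were below the threshold for PD15 against PD14 (Lhcgr and Prlr, lower on PD15), as were 3 for PD16 against PD14 (Fshr higher, Lhcgr and Prlr lower) and 1 for PD16 against PD15 (Fshr, higher). The shares of all genes tested at that threshold were 14.7% (7.51% lower), 22.8% (11.8% higher and 11.0% lower) and 14.1% (6.78% higher). Libraries of the 2 days did not overlap for 2, 2 and 1 of the 4 receptors, lower in the comparisons with PD14 and higher for PD16 against PD15. The shares of all genes tested were 20.6% (10.2% lower), 28.5% (13.5% lower) and 19.6% (9.85% higher). The limma F test over the 3 days gave adjusted p = 0.144 for Fshr, 0.152 for Lhcgr, 0.139 for Prlr and 0.450 for Ghr, and 3.03% of all genes passed it. The median change of all genes tested was 0.01 on the log2 scale in each comparison. The comparisons share libraries, so the values of a receptor in them are not independent.

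**Figure D2:**
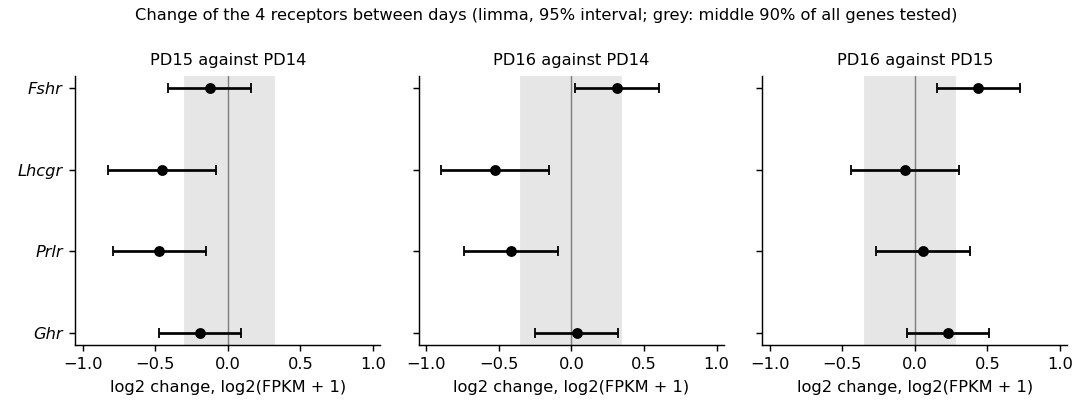
Log2 change of each receptor between 2 days (horizontal axes, difference in log2(FPKM + 1), limma) with its 95% interval. The grey band holds the middle 90% of all 15495 genes tested. Lhcgr and Prlr lie below the band on PD15 and PD16 against PD14, with intervals below 0, and Fshr lies above it on PD16 against PD15 (0.44), but no adjusted p was under 0.05.

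The balance of the 2 gonadotropin receptors was compared within each library, since a ratio of FPKM in 1 library does not change with its depth. The height of the ratio rests on the deposited model lengths, which are the same in all libraries. The ratio of Fshr to Lhcgr was 0.872, 0.938 and 1.15 in the PD14 libraries, 1.70, 0.983 and 1.19 on PD15, and 1.88, 2.15 and 1.52 on PD16. The PD16 libraries were all above those of PD14, while PD15 overlapped both. The mean ratio was 0.987 ± 0.145 on PD14, 1.29 ± 0.371 on PD15 and 1.85 ± 0.315 on PD16 (SD, n = 3). The exact permutation test of its log2 over the 3 days gave p = 0.0464, and 0.0929 when adjusted over the 6 ratios compared, which does not pass. The unadjusted exact p was 0.0607 to 0.107 without any one of the PD14 libraries, replicate 3 of PD15 or replicates 1 or 2 of PD16.

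Of the other ratios, Fshr to Prlr went from a mean of 2.94 ± 0.822 on PD14 to 3.94 ± 0.525 on PD15 and 5.29 ± 1.39 on PD16. Its exact permutation p was 0.0393, adjusted 0.0929. Leaving out any 1 library but replicate 3 of PD16 moved this p to 0.05 to 0.136. Prlr to Ghr, the ratio of the 2 cytokine receptors, went from 0.820 ± 0.165 to 0.633 ± 0.0657 and 0.553 ± 0.0870, with an exact permutation p of 0.0321, adjusted 0.0929. That p was 0.129 without replicate 1 of PD14, 0.0607 without replicate 1 of PD15, and 0.0857 without replicate 2 or replicate 3 of PD16. Lhcgr to Ghr was 2.37 ± 0.259, 2.0 ± 0.536 and 1.56 ± 0.307 on the 3 days (exact permutation p = 0.129, adjusted 0.193, and 0.0321 to 0.250 before adjustment with 1 library left out, the lowest without replicate 2 of PD15). Fshr to Ghr (2.32 ± 0.263, 2.49 ± 0.407 and 2.91 ± 0.793) gave an exact permutation p of 0.479, which ran from 0.0821, without replicate 3 of PD16, to 0.825 with 1 library left out. Lhcgr to Prlr was 2.97 ± 0.718, 3.14 ± 0.548 and 2.83 ± 0.299 (exact permutation p = 0.818).

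**Figure D3:**
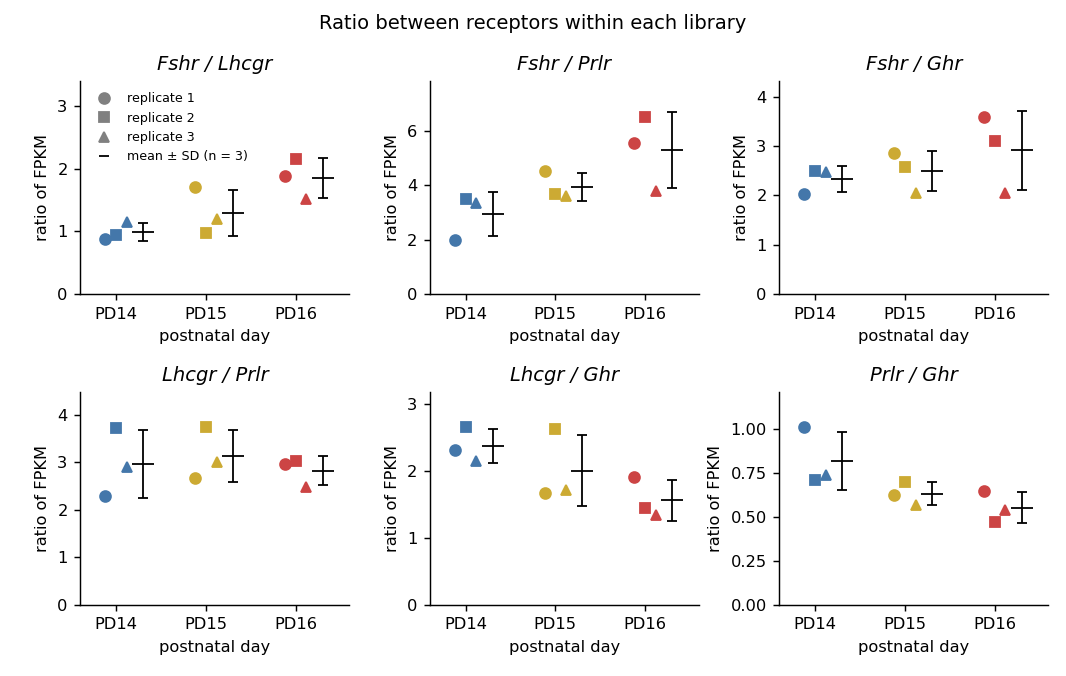
Ratio of FPKM between 2 receptors in the same library (vertical axes, linear from 0) by postnatal day, with 1 point for each library and the mean ± SD of 3 libraries in black. The ratio of Fshr to Lhcgr is 0.872 to 1.15 on PD14 and 1.52 to 2.15 on PD16, and the ratio of Lhcgr to Prlr overlaps on all days.

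Each gonadotropin receptor was also set beside markers of the cells that carry it. Some markers of each list are also counted below as genes that respond to FSH or LH. The marker level thus does not stand for the share of these cells alone. Fshr minus the mean of the 8 granulosa cell markers, both as log2(FPKM + 1), was -3.55 ± 0.26 on PD14, -3.66 ± 0.03 on PD15 and -3.20 ± 0.21 on PD16 (SD, n = 3), and all PD16 libraries lay above those of the other days. The exact permutation test over the 3 days gave p = 0.0607, adjusted 0.118 over the 2 receptors compared in this way, and the unadjusted exact p ran from 0.0107 without replicate 1 of PD14 to 0.214 without replicate 1 of PD16. Among the 8 granulosa cell markers, 1 rose and 1 fell (2.36% and 1.89% of all genes did), and both are named after their values were seen. From PD14 to PD16, Amh, the anti-Müllerian hormone of small growing follicles, rose by 0.47 (limma, adjusted p = 0.0223), and Kitl, the ligand of the oocyte's KIT receptor, fell by 0.50 (limma, adjusted p = 0.0494), while the other 6 did not pass. The call of Amh was lost without replicate 1 or 3 of PD14 or replicate 1 of PD16 (adjusted p 0.0504 to 0.0848) and with no filter on low values (0.0623), and that of Kitl without any one library but replicate 3 of PD15 (0.0575 to 0.132). Lhcgr minus the mean of the 8 theca and interstitial cell markers was -0.87 ± 0.14 on PD14, -1.13 ± 0.36 on PD15 and -1.37 ± 0.10 on PD16. All PD16 libraries were below those of PD14, and PD15 overlapped both. The exact permutation p was 0.118, before and after adjustment over the 2, and it ran from 0.0286 without replicate 1 of PD15 to 0.275 without replicate 2 of PD14. The summed level of these 8 markers was 1615 to 2241 FPKM on PD14, 1198 to 1769 on PD15 and 1228 to 1634 on PD16, most of it Hsd3b1. Against PD14, 3 of the 8 were higher and 5 lower on PD15 (median change -0.04), and 5 were higher and 3 lower on PD16 (0.08). The part of these markers in the lower Lhcgr was not tested beyond the difference given above.

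**Figure D4:**
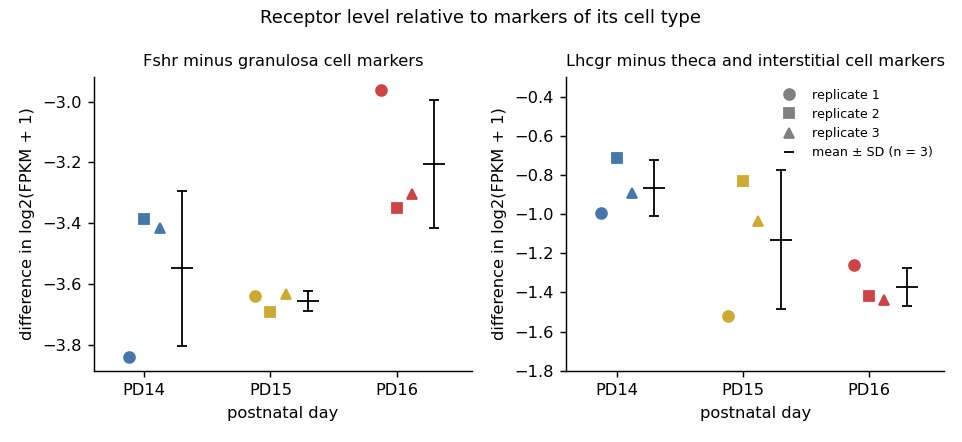
Receptor level minus the mean level of 8 markers of its cell type (vertical axes, difference in log2(FPKM + 1), not starting at 0) by postnatal day, 1 point for each library and mean ± SD of 3 libraries in black. Fshr relative to granulosa cell markers is highest on PD16 (mean -3.20), and Lhcgr relative to theca and interstitial cell markers has means of -0.87, -1.13 and -1.37.

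The genes that act with these receptors were counted in 10 lists that did not hold the receptors, and some of these genes are also cell type markers. Of 114 genes, 87 were tested, and 0 passed the limma test for PD15 against PD14 (0.678% of all genes did). At an unadjusted p under 0.05 there were 19, 28 and 18 of the 87 in the 3 comparisons (14.7%, 22.8% and 14.1% of all genes). For PD16 against PD14, 4 rose and 3 fell, which is 8.05% of the 87 against 4.25% of all genes (2.36% rose and 1.89% fell), and for PD16 against PD15, 2 rose and 0 fell, which is 2.30% against 0.729% (0.432% rose). The counts depend on the libraries: for PD16 against PD14 the 7 became 3, 2, 3 and 4 without replicate 1 or 3 of PD14 or replicate 1 or 3 of PD16, respectively. For PD16 against PD15 the 2 became 1 without replicate 1 or 3 of PD14 or replicate 1 of PD16, and 0 without replicate 1 or 2 of PD15 or replicate 3 of PD16. For PD15 against PD14 the 0 became 1 without replicate 3 of PD15.

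Among the 11 genes known to respond to FSH in granulosa cells, 1 rose and 2 fell from PD14 to PD16 (2.36% and 1.89% of all genes did), with a median change of -0.09 (0.01 for all genes tested). At an unadjusted p under 0.05 there were 8 of the 11 in this comparison (22.8% of all genes). Sgk1, a kinase induced by FSH, had 5.24, 5.12 and 4.48 FPKM on PD14, 6.56, 5.75 and 6.54 on PD15, and 9.48, 12.6 and 11.3 on PD16, and no 2 days overlapped. It rose by 1.02 (SE 0.10, limma, adjusted p = 0.00419) from PD14 to PD16. From PD15 to PD16 Sgk1 rose by 0.73 (limma, adjusted p = 0.0223), which was 0.0817, 0.0728 and 0.0646 without replicate 1 or 2 of PD15 or replicate 3 of PD16. Cyp19a1, the aromatase that makes estradiol under FSH, had 6.61, 3.77 and 4.95 FPKM on PD14, 2.84, 2.47 and 3.51 on PD15, and 2.54, 2.69 and 1.89 on PD16. It fell by 0.84 from PD14 to PD16 (SE 0.17, limma, adjusted p = 0.0316), a call lost without replicate 1 or 3 of PD14 or any PD16 library (0.0601 to 0.10). Nppc, which encodes the C-type natriuretic peptide, stood at 29.0, 21.6 and 30.6 FPKM on PD14, 18.6, 18.7 and 18.5 on PD15, and 19.1, 16.9 and 14.6 on PD16. It fell by 0.65 from PD14 to PD16 (SE 0.13, limma, adjusted p = 0.0294), a call lost without the same 5 libraries (0.0590 to 0.10). The direction of Sgk1 was thus opposite to that of Cyp19a1 and Nppc in the same libraries. Of all 11, 4 were higher and 7 lower on PD16 than on PD14. The others with an unadjusted p under 0.05 did not pass after adjustment and are named after their values were seen. Npr2, Fst and Igf1r were higher (0.37, 0.31 and 0.27), and Inhba and Hsd17b1 were lower (-1.04 and -0.27).

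Of 21 tested genes of Gs and cyclic AMP signalling, 1 rose and 1 fell from PD14 to PD16 (2.36% and 1.89% of all genes did), with a median change of 0.03. At an unadjusted p under 0.05 there were 6 of the 21 in this comparison (22.8% of all genes). Adcy9, an adenylyl cyclase, which makes cyclic AMP, went from 7.42, 8.07 and 7.47 FPKM on PD14 to 10.8, 10.2 and 11.1 on PD16. It rose by 0.44 (SE 0.06, limma, adjusted p = 0.0129), which was 0.0519 without replicate 3 of PD14 and 0.0548 without replicate 1 of PD16. Pde8a, a phosphodiesterase that breaks cyclic AMP down, went from 16.1, 16.3 and 16.8 FPKM to 13.5, 12.9 and 12.3. It fell by 0.32 (SE 0.05, limma, adjusted p = 0.0177), which was 0.0507 without replicate 1 of PD14 and 0.0704 without replicate 3. The remaining 19 did not pass in any comparison. In the desensitization list, arrestins and receptor kinases among its 9 tested genes, 0 passed the limma test in any comparison, with 3 at an unadjusted p under 0.05 in each, where the shares of all genes were 14.7%, 22.8% and 14.1% (median change 0.10 from PD14 to PD16). Its most abundant genes were Rgs2, a regulator of G proteins with means of 147, 163 and 214 FPKM on the 3 days (change 0.53 from PD14 to PD16, limma, adjusted p = 0.0540), and the adaptor Gipc1.

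Of 15 genes known to regulate Fshr or Lhcgr transcripts, 1 rose from PD14 to PD16 (2.36% of all genes did) and from PD15 to PD16 (0.432%). At an unadjusted p under 0.05 there were 5 of the 15 in each of these (22.8% and 14.1% of all genes). The gene that rose was Foxo1, a transcription factor of granulosa cells, with 31.9, 27.8 and 30.4 FPKM on PD14, 44.2, 43.2 and 36.9 on PD15, and 58.1, 54.0 and 60.3 on PD16. No 2 days overlapped, and Foxo1 rose by 0.92 from PD14 to PD16 (SE 0.08, limma, adjusted p = 0.00419). From PD15 to PD16 it rose by 0.47 (limma, adjusted p = 0.0462), but this call was lost without any one library except replicate 2 of PD14 (0.0508 to 0.141). Factors known to bind the motifs shown above are also in this list and are named after their values were seen. Usf1 was at 16.8 to 19.2 FPKM and Usf2 at 15.8 to 18.8 over the 9 libraries, and Sp1 was at 21.9 to 25.2 and Sp3 at 30.0 to 36.1. Their log2 changes from PD14 to PD16 were -0.04, -0.05, 0.08 and 0.09. The TCAAGG core and the GATA motif are bound by the products of the next genes. Nr5a1, which encodes steroidogenic factor 1, had 63.8, 61.3 and 60.9 FPKM on PD14, 54.4, 59.6 and 51.6 on PD15, and 53.7, 47.5 and 52.8 on PD16, with a change of -0.27 from PD14 to PD16 (limma, adjusted p = 0.0662). Gata4 had 82.1, 83.9 and 81.8 FPKM on PD14, 92.3, 91.3 and 79.1 on PD15, and 64.1, 69.0 and 70.6 on PD16, with a change of -0.28 (limma, adjusted p = 0.0620). Every PD16 library of Nr5a1, of Gata4 and of Gata6 (change -0.33, limma, adjusted p = 0.0976) was below every PD14 library. The same held for 13.5% of all genes tested. Nr5a2, a relative of Nr5a1, had a change of 0.17 with overlapping libraries. None of these 8 genes passed in any comparison.

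For the cytokine receptors, 0 of 16 tested genes of JAK-STAT signalling passed the limma test in any comparison (median change -0.05 from PD14 to PD16). At an unadjusted p under 0.05 there were 2 for PD15 against PD14, 3 for PD16 against PD14 and 0 for PD16 against PD15 (14.7%, 22.8% and 14.1% of all genes). Socs2, an inhibitor that growth hormone induces, was at 41.1 to 58.1 FPKM and the phosphatase gene Ptpn11 at 29.6 to 33.7. Stat5a, which transmits the prolactin signal and is named after its values were seen, had 3.54, 3.56 and 3.12 FPKM on PD14, 6.37, 4.62 and 4.52 on PD15, and 4.90, 4.74 and 5.78 on PD16. Every later library was above every PD14 library, but the change of 0.47 on PD16 did not pass (limma, adjusted p = 0.0537). Socs1, an inhibitor of JAK kinases that is named in the same way, had 10.3, 9.57 and 11.1 FPKM on PD14, 7.28, 8.44 and 8.79 on PD15, and 7.71, 8.63 and 7.83 on PD16. Every later library was below every PD14 library, and the change of -0.32 on PD16 did not pass (limma, adjusted p = 0.0569). Libraries did not overlap those of PD14 for 20.6% of all genes tested on PD15 and 28.5% on PD16 (10.2% and 13.5% lower). Of 5 tested genes that respond to growth hormone or prolactin, 1 rose from PD14 to PD16 (2.36% of all genes did), and 2 of the 5 had an unadjusted p under 0.05 (22.8% of all genes). This was Igf1, with 18.7, 22.9 and 18.1 FPKM on PD14, 22.1, 23.4 and 23.3 on PD15, and 33.5, 26.3 and 25.6 on PD16. It rose by 0.49 (SE 0.11, limma, adjusted p = 0.0437), a call lost without any one library except replicate 2 of PD14 (0.0524 to 0.142).

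Of the 6 genes by which theca and interstitial cells respond to LH, 0 passed the limma test in any comparison, with 1, 1 and 2 at an unadjusted p under 0.05 for PD15 and PD16 against PD14 and for PD16 against PD15 (14.7%, 22.8% and 14.1% of all genes). The median change of the 6 was -0.24, 0.14 and 0.24 in these comparisons, with 1, 3 and 5 of them above 0. The most abundant were Hsd3b1 and Cyp11a1, enzymes of steroid synthesis. Hsd3b1 had a log2 change of -0.48 on PD15 and -0.49 on PD16 (limma, adjusted p = 0.345 and 0.219), and Cyp11a1 had -0.91 and -0.61 (limma, adjusted p = 0.243 and 0.304). Cyp11a1 varied widely within days, at 50.8, 48.4 and 41.2 FPKM on PD14, 20.6, 20.2 and 34.7 on PD15, and 46.6, 16.8 and 35 on PD16. Its lowest library, replicate 2 of PD16, was also the lowest of PD16 for Lhcgr, Prlr and Ghr, but not for Fshr. That library was the lowest of PD16 for every gene of this list except Hsd3b1.

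**Figure D5:**
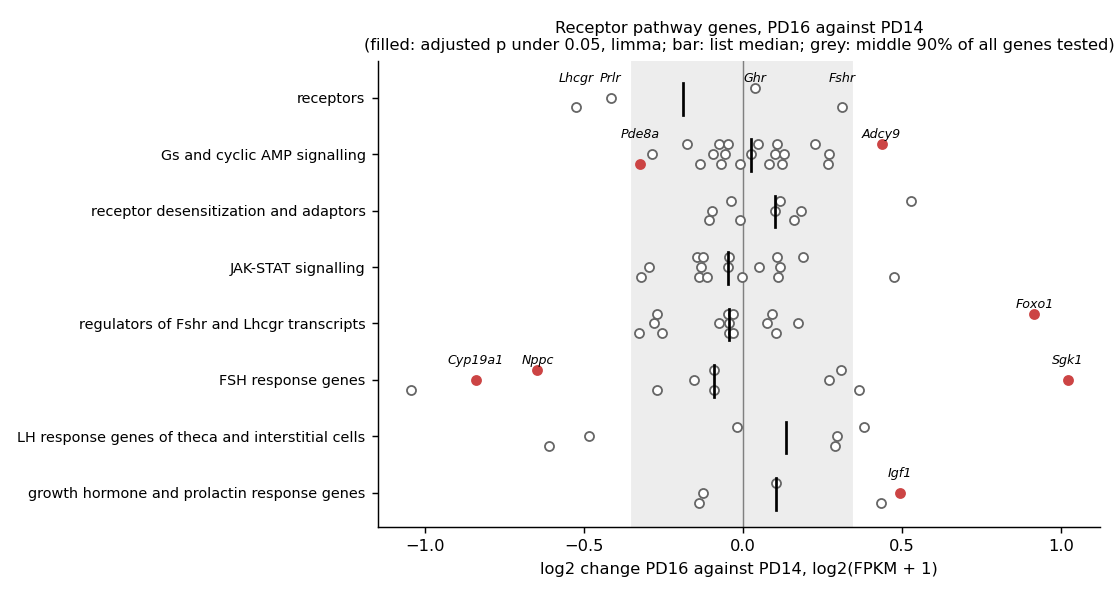
Log2 change from PD14 to PD16 (horizontal axis, difference in log2(FPKM + 1)) of the 4 receptors and of the tested genes of 7 lists, 1 point for each gene. Filled points had an adjusted p under 0.05 (limma) and are named, bars mark list medians, and the grey band holds the middle 90% of all genes tested. Sgk1 (1.02) and Foxo1 (0.92) lie farthest to the right, and the receptors are unfilled.

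Across the 9 libraries, Lhcgr and Prlr varied together (Pearson r = 0.77 of log2(FPKM + 1)), whereas Fshr had r = -0.12 with Lhcgr and -0.19 with Prlr, and Ghr had r = 0.49 with Prlr. These are descriptions over 9 libraries that share days. The 3 protein-coding genes whose pattern was most like that of Fshr were Sgpp2 (r = 0.97), Pir (0.95) and Dolpp1 (0.94). For Lhcgr they were Amt (0.95), Acad8 (0.95) and Sugct (0.94). For Prlr they were Lrrc57 (0.95), Kcnj8 (0.94) and Cyb561d1 (0.93), and for Ghr they were Tmem181a (0.95), Zfp282 (0.94) and Zfp697 (0.92). They were picked as the highest values among the protein-coding genes tested.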

How the data were processed

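RNA of ovaries was sequenced for 9 libraries, 3 each for PD14, PD15 and PD16. The authors deposited FPKM for each library. Per the submitters' processing notes, reads were aligned with HISAT2 2.0.5 to mm10, and the counter and annotation are not given in the sources used here. FPKM were used as deposited, and log2(FPKM + 1) was compared between days. The 15495 genes whose mean exceeded 1 FPKM in any of the 3 groups were fitted with limma 3.58.1 (intensity trend, R 4.3.3) over all 9 libraries, with Benjamini-Hochberg adjustment over these genes and a threshold of 0.05. The pseudocount understates changes of low genes. Exact permutation tests (two-sided, Python 3.11.15, NumPy 2.4.6) used the F statistic over all 280 groupings. With 3 against 3 libraries the smallest exact p is 0.1, so no pair of days could pass this test. In each library 94.9% to 95.3% of low FPKM were whole multiples of the value of 1 fragment within 0.05, which gave depths and fragment numbers. The length of each receptor's model was the shortest that made its 9 values whole, and coordinates come from GENCODE M21 (GRCm38).

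The receptors and lists were chosen with earlier results of these data known. Lists covered ligands, other receptors, relatives, cyclic AMP signalling, desensitization, JAK-STAT signalling, transcript regulators, responses to FSH, LH, growth hormone and prolactin, and markers of granulosa, theca and interstitial, oocyte, stromal, endothelial, macrophage, red cell, epithelial, fat, muscle and pituitary cells. Named from each list other than the markers were the genes with an adjusted p under 0.05 in any comparison, otherwise the 2 most abundant, and for each receptor the 3 protein-coding genes with the highest Pearson correlation. Other genes are said to be named after their values were seen, apart from Cga, Fshb, Gh, Prl and Tshr, which are given for their levels only. Alternatives were other pseudocounts, filters, scalings, fits and a replicate block, and each library was left out in turn. The scripts were tested on simulated data.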

Additional observations from a re-analysis of the deposited data

How the results depend on the processing

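Across 17 or 18 alternatives, the 12 log2 changes of the receptors gave 213 values, of which 208 kept their direction and stayed above the adjusted p of 0.05, and none passed it (lowest 0.0633, Lhcgr on PD16 against PD14). Prlr was not tested under a minimum mean of 5 FPKM. The other 5 reversed small changes, and the cause was not tested: Ghr on PD16 against PD14 was -0.087 without replicate 3 of PD16 (-0.087 to 0.12 with any 1 library left out), Lhcgr on PD16 against PD15 was 0.066 without replicate 2 of PD15 and 0.067 without replicate 2 of PD16 (-0.25 to 0.067), and Prlr was -0.0083 without replicate 1 of PD15 and -0.044 without replicate 3 of PD16 (-0.044 to 0.21). Leaving out 1 library moved the exact permutation p over the 3 days to 0.0143 to 0.211 for Fshr, 0.0214 to 0.196 for Lhcgr and 0.0143 to 0.186 for Prlr, to 0.0107 to 0.214 for Fshr relative to granulosa cell markers and 0.0286 to 0.275 for Lhcgr relative to theca markers, and to 0.0214 to 0.107 for the ratio of Fshr to Lhcgr, 0.0107 to 0.136 for Fshr to Prlr, 0.0321 to 0.250 for Lhcgr to Ghr and 0.0179 to 0.129 for Prlr to Ghr. A pseudocount of 0.1 moved none of these across 0.05. Other scalings, which were run for the 4 receptors but not for the ratios or the values relative to markers, moved none of the receptors across it.

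Counts over all genes moved more. For PD15 against PD14 the 105 genes became 29 with no filter, 63 with a minimum mean of 5, 47 with only the 2 days fitted and 3 to 92 with 1 library left out. For PD16 against PD14 the 659 became 172 with no filter, 320 with only the 2 days and 92 to 660 with 1 library left out. For PD16 against PD15 the 113 became 24 with no filter and 14 to 125 with 1 library left out. The pathway genes called, 0, 7 and 2, became 2 and 11 under quantile normalization for the comparisons with PD14 (PD15 and PD16). For PD16 against PD14 they were 4 with no filter and 12 with a minimum mean of 5. For PD16 against PD15 they were 0 with no filter, 1 without the trend and 1 with only the 2 days. With 1 library left out they were 0 to 1, 2 to 8 and 0 to 2. The cause was not tested.

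Replicate numbers do not pair the libraries: same-numbered libraries of different days had correlations of -0.21 to 0.16, with 2 of 9 over 0.1 against 6 of 18 for other pairs. With the replicate block 24, 227 and 56 genes passed in the 3 comparisons, and 3 pathway genes for PD16 against PD14 (Adcy9, Foxo1 and Sgk1) and 0 for PD16 against PD15. The adjusted p of Pde8a was then 0.0507, of Nppc 0.0581, of Cyp19a1 0.0626, of Igf1 0.0814 and of Kitl 0.103. With only the 2 days, the calls of Cyp19a1, Nppc, Igf1 and Kitl were also lost (0.0516 to 0.0856), as they and that of Amh were with no filter (0.0623 to 0.117). No receptor passed with it.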

Other observations

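Transcripts of the hormones were mostly low. Of 7 genes for pituitary hormones, only Lhb, the LH beta subunit, had a mean above 1 FPKM, with 2.11, 2.38 and 2.97 FPKM on PD14, 4.17, 3.16 and 3.08 on PD15, and 3.10, 2.92 and 3.48 on PD16, a level near that of Prlr, and it did not pass (limma, adjusted p = 0.211, 0.230 and 0.790). Lhb overlaps Ruvbl2 on the opposite strand in GENCODE M21, and since the strand of counting is not given, reads of the 2 cannot be told apart. Pomc, the precursor of corticotropin, was at 0.626 to 0.942 FPKM. Cga, the subunit that FSH and LH share, was at most 0.206 FPKM, Fshb at most 0.0525, Gh at most 0.171 and Prl at most 0.0456.

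Of 13 receptors for other pituitary or hypothalamic hormones, 1 was tested. Oxtr, the oxytocin receptor, was at 3.34 to 5.26 FPKM, a level close to that of Prlr, with overlapping days (limma, adjusted p = 0.765, 0.995 and 0.791). Next was Avpr1a, a vasopressin receptor, at 0.148 to 0.338 FPKM. Tshr, the receptor of thyrotropin and the third of the glycoprotein hormone receptors, was at 0.171 to 0.258 FPKM, far below Fshr and Lhcgr in every library. Among 9 relatives of the 4 receptors, 4 were tested and 0 passed the limma test in any comparison (0.678%, 4.25% and 0.729% of all genes did). At an unadjusted p under 0.05 there were 0 of the 4 in each, where the shares of all genes were 14.7%, 22.8% and 14.1%. Lgr4, a relative of the gonadotropin receptors that binds R-spondins, was at 9.85 to 12 FPKM, and Lepr, the leptin receptor, was at 6.25 to 8.15 FPKM, above Prlr in all 9 libraries and above Ghr in 7 of them.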
